A study of Mus musculus with 15 samples.

Results

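In mouse embryonic stem cells (ESCs) and in stem cells of extended or expanded potential (EPSCs), 2860 regions carried a peak of acetylated histone H3 lysine 27 (H3K27ac) in ESCs and in L-EPSCs and no such peak in D-EPSCs. They were chosen by the presence and absence of H3K27ac peaks alone. Overlapping or touching peaks of the 3 deposited H3K27ac lists were joined into 70360 union regions, and the members made up 4.06% of them. The H3K27ac values below therefore describe the members and carry no test. The lists of monomethylated histone H3 lysine 4 (H3K4me1) were not used in the choice.

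The ESCs were the J1 line of strain 129SV, a line derived from mouse embryos. They were grown on feeder fibroblasts or gelatin in serum medium with LIF and 2i, which is the GSK3 inhibitor CHIR99021 together with the MEK inhibitor PD0325901. D-EPSCs were grown in N2B27 medium with knockout serum replacement, LIF, CHIR99021, dimethindene maleate and minocycline hydrochloride. L-EPSCs were grown on feeders or gelatin with knockout serum replacement, LIF, CHIR99021, PD0325901, A-419259, XAV939, JNK inhibitor VIII and SB203580. Per the study's methods, the EPSCs were kept without feeders for several passages before chromatin was taken. LIF and CHIR99021 were in all 3 media, while PD0325901 was in the ESC and L-EPSC media and not in the D-EPSC medium. The media differed in many other components, and their parts in any difference cannot be told apart. Chromatin immunoprecipitation and sequencing covered 2 samples per mark and state and 1 input per state, 15 samples in all. The deposited files held 1 peak list per mark and state, so no difference between states has a replicate check, and no p-value is given.

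H3K27ac is placed by acetyltransferases such as p300 and CBP at active enhancers and promoters, and H3K4me1 is placed by MLL3 and MLL4 at enhancers, active or not. A region with H3K4me1 and no H3K27ac is commonly called a primed or poised enhancer. In naive pluripotent cells, distal enhancers are bound by OCT4, SOX2, NANOG, ESRRB and KLF factors.

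The H3K27ac lists held 64342 peaks over 107 Mb in ESCs, 32782 peaks over 44.4 Mb in D-EPSCs and 26966 peaks over 34.3 Mb in L-EPSCs. The H3K4me1 lists were closer in size, with 107222, 102751 and 105306 peaks. Read depth is unknown from these files, and it bears on the length of a list. A region listed without a peak in D-EPSCs may hold H3K27ac below the caller's threshold. All 5 stem cell markers (Pou5f1, Sox2, Nanog, Sall4 and Zfp42) were acetylated at their start sites in each of the 3 states. None of 12 fibroblast markers, including Col1a1, Thy1 and Twist1, had one in any state, and no member lay at their loci. In a longer list of 20 fibroblast genes, Vim and Fn1 had start-site H3K27ac in each state and Loxl1 in L-EPSCs only.

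The sequences below are from the members that the text names. Each is the 300 bases at the centre of the longest stretch covered by both the ESC and the L-EPSC peak, on the plus strand of mm9 (NCBIM37). Mras and Arid5b are shown as members of wide extent, and Tfcp2l1 as a regulator of naive pluripotency. The other 7 are shown because they hold AAGGTCA, the half-site bound by ESRRB, whose frequency is compared further on. Capitals mark every match, on either strand, to one of the motifs searched.
Mras chr9:99323345-99323644: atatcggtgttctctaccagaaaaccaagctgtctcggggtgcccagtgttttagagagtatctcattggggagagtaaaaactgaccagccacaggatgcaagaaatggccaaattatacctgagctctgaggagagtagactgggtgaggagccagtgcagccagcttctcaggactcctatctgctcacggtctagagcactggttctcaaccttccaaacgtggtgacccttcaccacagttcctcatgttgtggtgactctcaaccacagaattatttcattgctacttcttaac
Arid5b chr10:67692297-67692596: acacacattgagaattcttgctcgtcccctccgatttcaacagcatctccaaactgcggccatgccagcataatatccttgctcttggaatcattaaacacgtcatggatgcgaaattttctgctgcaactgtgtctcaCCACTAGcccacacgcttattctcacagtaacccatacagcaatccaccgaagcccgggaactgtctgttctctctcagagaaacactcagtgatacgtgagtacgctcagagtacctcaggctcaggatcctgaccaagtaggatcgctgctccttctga
Tfcp2l1 chr1:120530567-120530866: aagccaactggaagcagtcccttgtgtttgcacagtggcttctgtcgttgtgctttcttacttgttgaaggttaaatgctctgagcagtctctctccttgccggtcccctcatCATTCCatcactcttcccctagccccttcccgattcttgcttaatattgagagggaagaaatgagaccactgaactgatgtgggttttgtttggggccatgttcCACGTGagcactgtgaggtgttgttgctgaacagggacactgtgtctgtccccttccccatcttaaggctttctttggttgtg
Pramel6 chr2:87355496-87355795: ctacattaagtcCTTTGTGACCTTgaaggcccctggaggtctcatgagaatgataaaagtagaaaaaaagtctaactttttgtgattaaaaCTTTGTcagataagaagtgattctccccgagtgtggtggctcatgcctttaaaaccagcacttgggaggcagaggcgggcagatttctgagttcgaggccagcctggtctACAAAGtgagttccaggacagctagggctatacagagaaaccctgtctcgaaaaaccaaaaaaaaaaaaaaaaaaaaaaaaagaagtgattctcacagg
Rftn1 chr17:50164524-50164823: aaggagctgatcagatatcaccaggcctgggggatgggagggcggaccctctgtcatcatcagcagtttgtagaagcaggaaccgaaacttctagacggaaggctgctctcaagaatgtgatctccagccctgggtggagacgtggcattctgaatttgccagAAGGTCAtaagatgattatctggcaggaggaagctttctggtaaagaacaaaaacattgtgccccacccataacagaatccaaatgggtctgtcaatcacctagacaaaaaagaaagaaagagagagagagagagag
Fryl chr5:73545239-73545538: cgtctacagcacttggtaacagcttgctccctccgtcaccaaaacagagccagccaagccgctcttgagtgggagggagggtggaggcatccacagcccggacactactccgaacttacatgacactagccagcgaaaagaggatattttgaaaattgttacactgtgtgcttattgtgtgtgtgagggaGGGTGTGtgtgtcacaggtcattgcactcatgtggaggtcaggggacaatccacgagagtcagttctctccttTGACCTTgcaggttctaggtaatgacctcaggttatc
Sox2 chr3:34541196-34541495: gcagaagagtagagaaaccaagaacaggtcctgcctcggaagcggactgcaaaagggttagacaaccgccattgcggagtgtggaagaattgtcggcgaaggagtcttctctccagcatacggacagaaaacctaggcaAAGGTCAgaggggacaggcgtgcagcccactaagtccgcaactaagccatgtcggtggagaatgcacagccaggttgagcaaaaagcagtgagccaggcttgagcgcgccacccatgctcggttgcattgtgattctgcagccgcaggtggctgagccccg
Dnmt1 chr9:20767502-20767801: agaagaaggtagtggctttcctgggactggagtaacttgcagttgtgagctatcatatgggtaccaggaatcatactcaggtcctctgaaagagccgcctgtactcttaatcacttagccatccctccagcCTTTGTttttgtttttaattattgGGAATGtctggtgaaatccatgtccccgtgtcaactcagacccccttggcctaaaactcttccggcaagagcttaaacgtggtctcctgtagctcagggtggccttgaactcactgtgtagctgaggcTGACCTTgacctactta
Rnf2 chr1:153315009-153315308: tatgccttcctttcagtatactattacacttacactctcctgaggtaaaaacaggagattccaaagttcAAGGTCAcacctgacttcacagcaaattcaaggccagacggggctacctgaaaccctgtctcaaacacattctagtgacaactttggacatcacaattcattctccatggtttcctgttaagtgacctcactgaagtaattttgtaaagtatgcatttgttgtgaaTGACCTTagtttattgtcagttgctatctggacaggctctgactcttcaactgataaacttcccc
Pcgf6 chr19:47121237-47121536: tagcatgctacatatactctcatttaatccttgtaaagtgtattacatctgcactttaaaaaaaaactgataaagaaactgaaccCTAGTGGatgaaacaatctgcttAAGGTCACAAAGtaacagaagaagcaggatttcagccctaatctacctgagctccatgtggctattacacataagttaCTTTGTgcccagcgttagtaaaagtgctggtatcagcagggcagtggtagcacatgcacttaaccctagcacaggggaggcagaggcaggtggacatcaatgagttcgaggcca
In the Mras window none of the motifs was found, so it has no capitals. The Arid5b window holds CCACTAG, a part of the CTCF motif, and the Tfcp2l1 window holds a TEAD match (GGAATG) and the E-box CACGTG. In the Pramel6 window a SOX core (ACAAAG) and the ESRRB half-site run into each other, and in the Pcgf6 window they do so on the other strand. The Rnf2 window holds 2 ESRRB half-sites. The Rftn1 and Sox2 windows hold 1 half-site and no other match. The Fryl window adds a KLF match (GGGTGTG), and the Dnmt1 window adds a SOX core and a TEAD match.

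The members were narrow in L-EPSCs and wider in ESCs. The median member spanned 1469.5 bp, against 1393 bp for regions with H3K27ac in ESCs and D-EPSCs but not L-EPSCs, 2806.5 bp for regions acetylated in all 3 states and 649 bp for regions acetylated in ESCs only. Within members, the ESC peaks covered a median of 1307.5 bp (quartiles 673.75 and 2345.25 bp) and the L-EPSC peaks 543 bp (327 and 925 bp). The median log2 ratio of ESC to L-EPSC bases was 1.07, with quartiles of 0.23 and 2.07. ESC bases were the larger in 2315 members (80.9%) and L-EPSC bases in 544 (19.02%). In 1605 members (56.1%) the L-EPSC peaks lay wholly inside an ESC peak. Most members were simple, and 2614 (91.4%) held 1 ESC peak and 1 L-EPSC peak. Regions acetylated in ESCs and D-EPSCs but not L-EPSCs had a similar shape, with medians of 1212 bp in ESCs and 614 bp in D-EPSCs.

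D-EPSC acetylation was often close by. The nearest D-EPSC H3K27ac peak lay a median of 6994 bp from a member, and for 1711 members (59.8%) it lay within 10 kb. It lay within 1 kb for 254 members (8.88%) and beyond 100 kb for 163 (5.70%). For regions acetylated in ESCs only, the corresponding median was 7595 bp and the share within 10 kb was 57.6%. In the converse class, with ESC and D-EPSC peaks, the nearest L-EPSC peak lay farther off, at a median of 14821 bp, and that list has fewer peaks. The nearest region with a D-EPSC peak was one acetylated in all 3 states for 2116 members (74.0%), while such regions made up 53.8% of all regions with a D-EPSC peak.

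**Figure D1:**
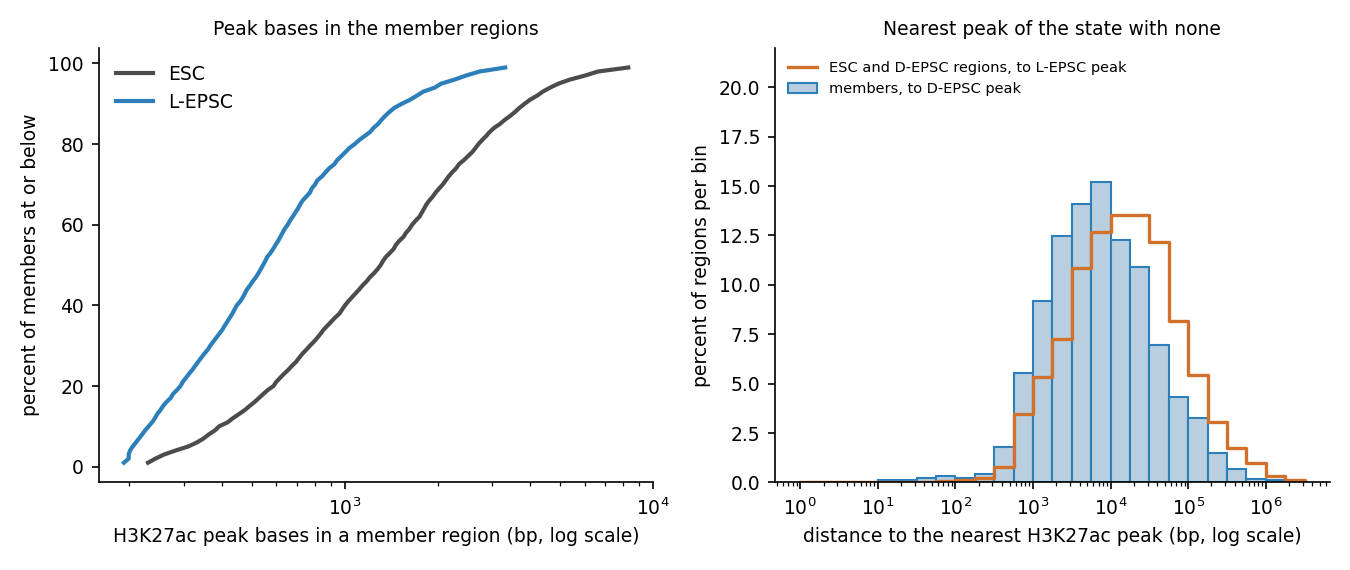
Left, cumulative percent of the 2860 members against the H3K27ac peak bases they hold in ESCs and in L-EPSCs (log axis, bp). Right, distance to the nearest peak of the state without one (log axis, bp), as bars for members (D-EPSC peak) and as a line for regions with ESC and D-EPSC peaks (L-EPSC peak); the ESC curve runs to the right of the L-EPSC curve, with medians of 1307.5 and 543 bp, and the bars centre near 7 kb.

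The rule turns on single bases at its edge. The members nearest to a D-EPSC peak were chr13:98092926-98093429, with a gap of 4 bp, and chr1:157921790-157922266 and chr7:25976925-25977696, with gaps of 10 bp. Just outside the rule, the region acetylated in all 3 states at chr5:65116249-65119396 shared 4 bp between its D-EPSC peak and the other peaks, and that at chr14:55495175-55495919 shared 9 bp. Gaps of at most 100 bp were found for 25 members, and overlaps of at most 100 bp for 20 regions acetylated in all 3 states.

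H3K4me1 was present at most members in every state, D-EPSCs included. An H3K4me1 peak touched 2560 members in ESCs (89.5%), 2668 in L-EPSCs (93.3%) and 2440 in D-EPSCs (85.3%). Over all union regions the shares were 79.6%, 72.3% and 73.1%. By chromosome, the members' D-EPSC share ran from 68.8% (X) to 92.7%, with a median of 85.4%, and it was below the L-EPSC share on 19 of 20 chromosomes and below the ESC share on 17. The differences were 7.97 and 4.20 percentage points. Thus the H3K4me1 lists followed the same order as the H3K27ac rule, but by a small margin.

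The extent of H3K4me1 within members showed a wider gap than its presence. Peaks of H3K4me1 covered a median of 99.6% of a member's bases in ESCs, 96.1% in L-EPSCs and 76.0% in D-EPSCs. The mean cover was 77.4%, 79.1% and 64.9%. Over all union regions the median cover was 92.1% in ESCs, 63.0% in L-EPSCs and 67.4% in D-EPSCs. Cover below that of ESCs in D-EPSCs is therefore not particular to members. When at least 50% of the region had to be covered, 80.5% of members counted as marked in ESCs, 84.8% in L-EPSCs and 68.5% in D-EPSCs. In regions with ESC and D-EPSC peaks the low value was the L-EPSC one, with a median cover of 63.7% against 84.1% in D-EPSCs and 90.4% in ESCs.

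By pattern, 2335 members (81.6%) carried H3K4me1 in all 3 states. The pattern that matches the H3K27ac rule, H3K4me1 in ESCs and L-EPSCs only, was found at 172 members (6.01%). In the converse class the pattern that matches its own rule, H3K4me1 in ESCs and D-EPSCs only, was about as frequent, at 408 of 6943 regions (5.88%). H3K4me1 in ESCs and L-EPSCs only was found at 0.591% of regions with ESC and D-EPSC peaks and 0.387% of regions acetylated in all 3 states. The share of that pattern in regions acetylated in ESCs only was 5.84%, close to that of members. A further 135 members (4.72%) had no H3K4me1 peak in any state, 85 had it in both EPSCs, 76 in L-EPSCs only, 37 in ESCs only, 16 in ESCs and D-EPSCs and 4 in D-EPSCs only.

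Among the 172, a pair was chosen here after the values were seen, by the largest smaller value of ESC and L-EPSC H3K27ac bases. The first was an intronic region of Plekha5, which encodes a pleckstrin homology domain protein, at chr6:140398840-140401209. It held 2362 bp of ESC and 2212 bp of L-EPSC H3K27ac, with 596 bp of H3K4me1 in ESCs, 2198 bp in L-EPSCs and 0 in D-EPSCs. The second was an intronic region of Myo1e, a class I myosin, at chr9:70131232-70133100, whose 1869 bp were fully covered by H3K4me1 in ESCs and in L-EPSCs and not at all in D-EPSCs.

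The H3K4me1 share was higher in wider regions, so classes were also set beside each other at equal width. Among members of 1000 to 2000 bp the D-EPSC share was 87.5% (n = 947), near the 89.7% of regions acetylated in all 3 states and above the 77.6% of ESC-only regions of that width. In narrower regions the members stood above those acetylated in all 3 states, with 73.6% against 66.8% at 500 to 1000 bp and 62.1% against 34.1% under 500 bp. At these widths the classes differed in place. Start sites held 7.12% and 10.9% of members, against 48.7% and 47.3% of regions acetylated in all 3 states. Away from start sites, over all widths, the D-EPSC share was 84.9% for members and 94.8% for regions acetylated in all 3 states. Among members under 500 bp (n = 211) the shares were 62.1% in ESCs, 74.4% in L-EPSCs and 62.1% in D-EPSCs. Among the 270 members of 4000 bp or more they were 100% in ESCs, 100% in L-EPSCs and 99.6% in D-EPSCs. Over all widths the members' D-EPSC share was above that of ESC-only regions (64.2%) on 20 of 20 chromosomes and below that of regions acetylated in all 3 states (92.8%) on 20 of 20, and the latter regions are wider.

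**Figure D2:**
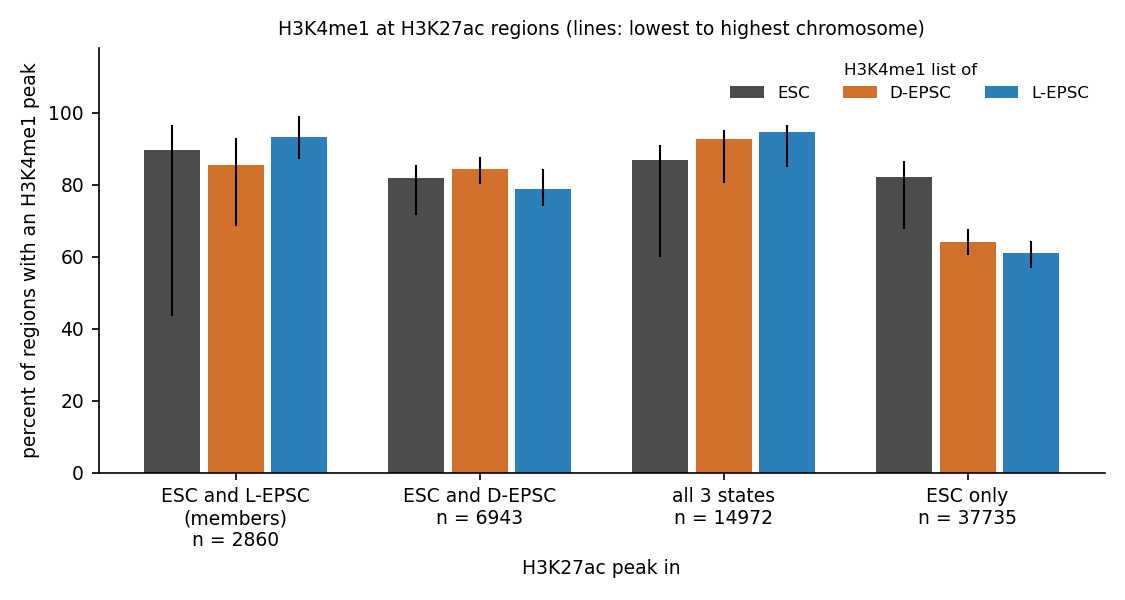
Percent of H3K27ac regions with an H3K4me1 peak in the list of each state, for members and 3 other classes of region (number of regions under each group). Bars give the share over all chromosomes and lines run from the lowest to the highest of 20 chromosomes; for members the bars stand at 89.5% (ESCs), 85.3% (D-EPSCs) and 93.3% (L-EPSCs), and the long line for ESCs ends at chromosome X.

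Members lay mostly away from start sites. Only 196 (6.85%) came within 1 kb of the start site of a protein-coding gene, against 12.8% of regions with ESC and D-EPSC peaks, 32.4% of regions acetylated in all 3 states, 4.21% of ESC-only regions and 12.9% of all union regions. Of the rest, 425 members (14.9%) touched an exon, 906 (31.7%) lay in introns and 1333 (46.6%) lay outside protein-coding genes. The share outside genes was 35.3% for regions with ESC and D-EPSC peaks and 35.4% for ESC-only regions. The median distance to a start site was 25.2 kb, and 868 members (30.3%) were more than 50 kb away. At start sites H3K4me1 was present at 79.1% of members in ESCs, 93.4% in L-EPSCs and 90.8% in D-EPSCs. Away from them the D-EPSC share was the lowest, at 84.9% against 90.3% and 93.3%.

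Few members lay on chromosome X. It held 16 members, or 1.94% of its 826 union regions, while the autosomes ranged from 3.02% (chromosome 19) to 5.12% (chromosome 8). Among regions with both ESC and L-EPSC peaks, members were 9.30% on X and 12.1% to 19.2% on autosomes. Of the 16 members on X, H3K4me1 was present at 7 in ESCs, 14 in L-EPSCs and 11 in D-EPSCs.

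Some members lay close together. Another member lay within 10 kb for 714 (24.97%) and within 50 kb for 1325 (46.3%). In the larger class with ESC and D-EPSC peaks the shares with a neighbour of the same class were 25.05% and 56.6%, and for ESC-only regions they were 74.1% and 93.2%. Both classes hold more regions than the members, so these shares do not set the members apart. Among members, 34 chains of 5 or more had gaps of at most 50 kb. The densest was at Mras, which encodes a small GTPase of the RAS family that acts with SHOC2 and PP1 on RAF kinases. There, 10 members stood within 52.0 kb at chr9:99286296-99338293, with no gap over 10 kb between neighbours. Over the gene body widened by 10 kb, H3K27ac covered 38.7 kb in ESCs, 28.0 kb in L-EPSCs and 0 in D-EPSCs. H3K4me1 covered 54.2 kb in ESCs, 52.9 kb in L-EPSCs and 29.3 kb in D-EPSCs. The start site of Mras had an H3K27ac peak in ESCs and L-EPSCs and none in D-EPSCs. The locus held no region acetylated in all 3 states.

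The widest of all members that had no D-EPSC peak within 10 kb was part of that group. At chr9:99310495-99329713, over exons and introns of Mras, 1 ESC peak covered all 19219 bp and 4 L-EPSC peaks covered 16408 bp. The nearest D-EPSC peak was 53617 bp away. H3K4me1 covered the whole region in ESCs, 18449 bp in L-EPSCs and 13953 bp in D-EPSCs.

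The other 9 members named by the same rule, the largest smaller value of ESC and L-EPSC bases, carried 3592 to 6500 bp in L-EPSCs and 3622 to 15592 bp in ESCs. All 9 also had H3K4me1 in each state. An intron of Arid5b, which encodes a DNA-binding protein with an AT-rich interaction domain, held 6624 bp in ESCs and 5467 bp in L-EPSCs at chr10:67689008-67695631. Its H3K4me1 covered 6624, 5324 and 6462 bp in ESCs, D-EPSCs and L-EPSCs, so most of the region carried it in D-EPSCs too.

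Some of the 9 had much less H3K4me1 in D-EPSCs than in the other states. At chr2:87352359-87363343, 5637 bp from the start of Pramel6, a gene of the Prame-like family active in early embryos and ESCs, H3K27ac covered 10985 bp in ESCs and 5442 bp in L-EPSCs. H3K4me1 covered 10311, 1438 and 7401 bp in ESCs, D-EPSCs and L-EPSCs, and the nearest D-EPSC H3K27ac peak was 1069073 bp away. Prame-like genes have close copies, and reads shared between copies could shift peaks there. In an intron of Rftn1, a lipid raft protein, at chr17:50157949-50173540, ESC H3K27ac covered 15592 bp and L-EPSC H3K27ac 5050 bp, and H3K4me1 covered 15592, 3300 and 13404 bp. At chr19:42963035-42970133, in an intron of the heparanase gene Hpse2, H3K27ac covered 5530 bp in ESCs and 6500 bp in L-EPSCs, and H3K4me1 covered 5156, 2729 and 5275 bp. At chr2:129241976-129248549, an intergenic region 45101 bp from Il1b (interleukin 1 beta), H3K27ac covered 6574 bp in ESCs and 4891 bp in L-EPSCs, and H3K4me1 covered 5269, 2822 and 5252 bp.

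**Figure D3:**
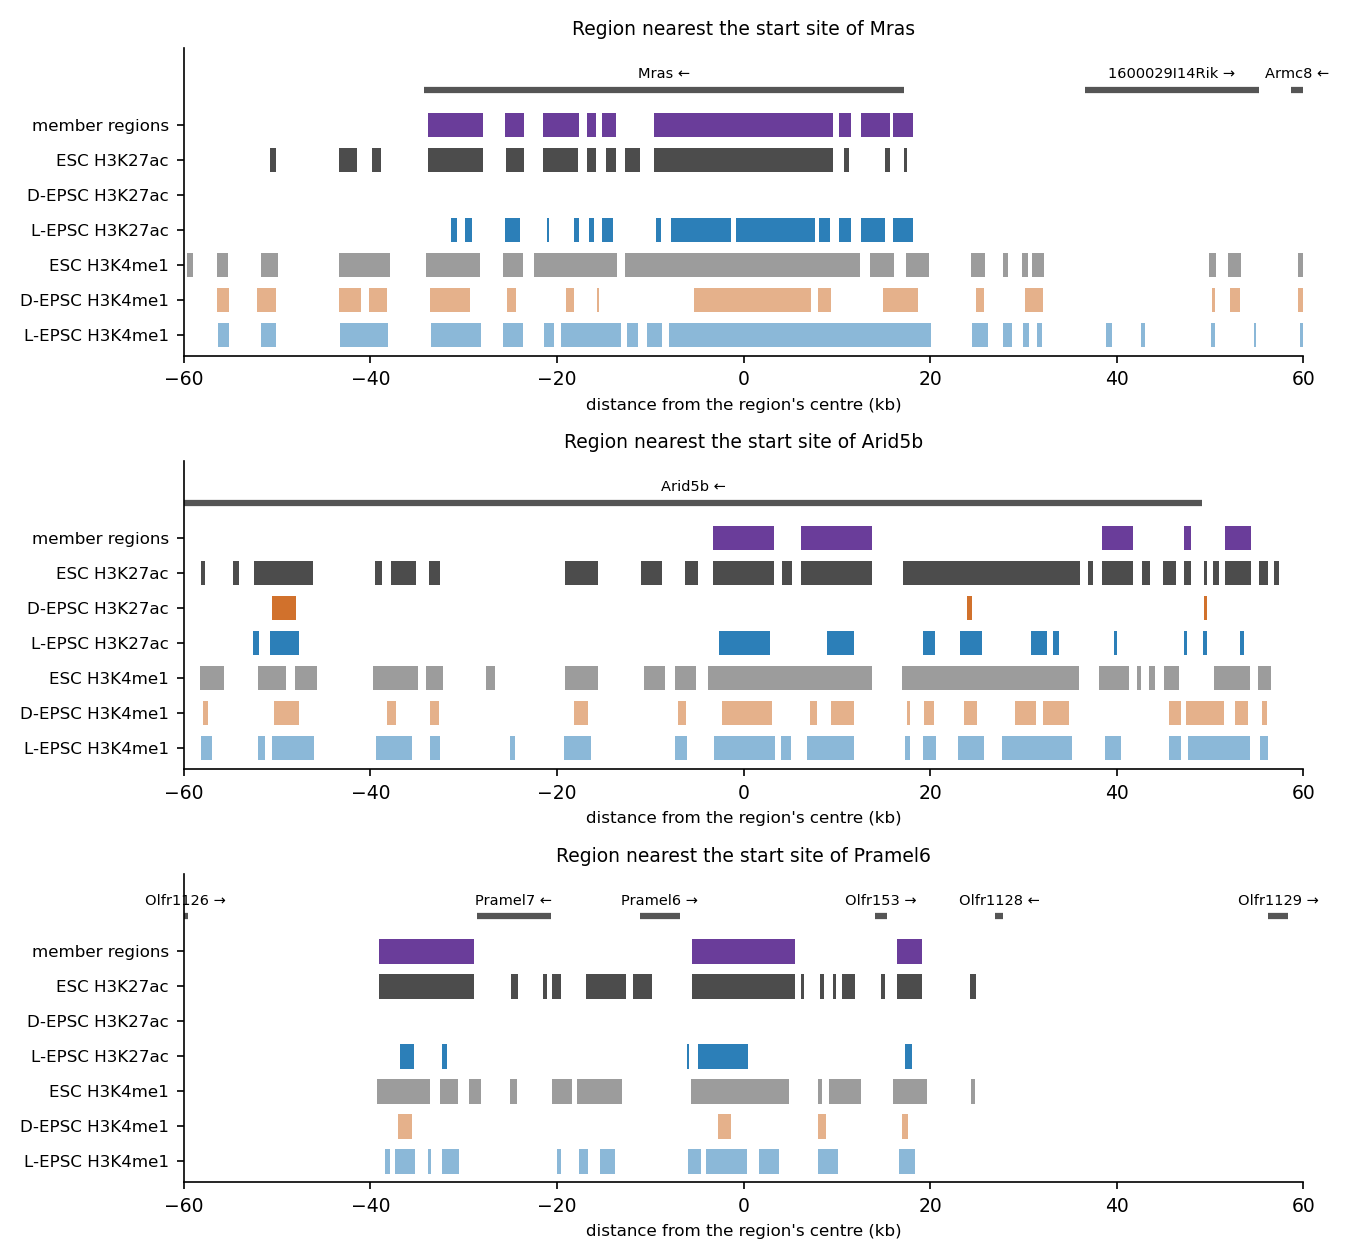
Peaks of the 6 lists within 60 kb of the centre of 3 members, named by the nearest start site, with all members in purple, ESC in grey, D-EPSC in orange and L-EPSC in blue (H3K4me1 paler) and protein-coding genes above. The horizontal axis is the distance from the member's centre in kb; the D-EPSC H3K27ac row is empty around Mras and Pramel6 and holds 3 peaks around Arid5b.

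The remaining members of that set were an intronic region of Fryl, regions over the start sites of Gm53 and Gjb5, and a region in Ttll8, 27830 bp from Pim3. Gjb5 encodes a gap junction connexin and Pim3 a serine/threonine kinase. At Gjb5 the member covered 11525 bp in ESCs and 3679 bp in L-EPSCs, and H3K4me1 was nearly as wide in D-EPSCs (10209 bp) as in ESCs (10848 bp). At Pim3 H3K4me1 covered 3609, 4499 and 4499 bp in ESCs, D-EPSCs and L-EPSCs.

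Counted by gene, 1908 of 22350 protein-coding genes (8.54%) had a member in the body widened by 10 kb, and 211 (0.944%) at the start site. For regions with ESC and D-EPSC peaks the counts were 4806 (21.5%) and 963 (4.31%), in a class of 6943 regions. Most of the 1908 genes, 1515, had 1 member, and 126 had 3 or more. Both the ESC and the L-EPSC peak reached into the start site window at 183 of the 211 genes. At the others a member touched the window but 1 of the peaks did not. A D-EPSC peak also reached into the window at 15 of the 211 genes, which left 169 with ESC and L-EPSC peaks and no D-EPSC peak there. No D-EPSC H3K27ac covered any base of the locus for 287 of the 1908 genes (15.0%). That share was also 15.0% over the 13763 genes with any ESC H3K27ac base. Over the 10941 genes with any L-EPSC H3K27ac base it was lower, at 4.21% (461 genes). Genes with a member hold both by the rule, so the reading depends on the set compared. In the converse class 1268 of 4806 genes (26.4%) lacked L-EPSC H3K27ac. Of the 287 genes, 6 had 3 or more members: Mras, Creb3l2, the neighbours Smtnl1 and Ube2l6, Gna11 and Eepd1, named here after their values were seen. Creb3l2 encodes a bZIP transcription factor, Gna11 a G protein alpha subunit and Ube2l6 a conjugating enzyme of ISG15.

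Apart from Mras, the genes with most members were large. Gm20388, an annotated locus of 4434.88 kb that spans many other genes, held 14, and Fgfr2, a receptor for fibroblast growth factors annotated over 3009.07 kb here, held 8. Ctif (a translation initiation factor) and Zbtb7c (a zinc finger protein) lie on chromosome 18 and held 8 each. At Zbtb7c, H3K27ac covered 21.7 kb in ESCs, 22.8 kb in L-EPSCs and 2.41 kb in D-EPSCs, and H3K4me1 was widest in L-EPSCs, at 99.6 kb against 71.0 kb in ESCs and 60.9 kb in D-EPSCs. At Ctif, H3K27ac covered 68.7, 13.7 and 34.1 kb in ESCs, D-EPSCs and L-EPSCs.

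Arid5b and Plekha5 held 6 members each. Over Arid5b, H3K27ac covered 114 kb in ESCs, 35.2 kb in L-EPSCs and 26.95 kb in D-EPSCs, so the EPSCs differed less from each other than from ESCs. Grik3, a kainate-type glutamate receptor subunit, Wwc2, of the family of Hippo pathway scaffolds, and Nmnat2, an enzyme of NAD synthesis, held 5 each. At Grik3 the start site had H3K27ac in ESCs and L-EPSCs and not in D-EPSCs, and H3K27ac covered 79.1 kb in ESCs, 24.6 kb in L-EPSCs and 14.3 kb in D-EPSCs. At Wwc2 the EPSC values were close to each other, at 9.14 kb in L-EPSCs and 6.69 kb in D-EPSCs, below 38.9 kb in ESCs.

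Of 272 genes in 17 lists of pluripotency, signalling, lineage and metabolic genes, 31 (11.4%) had a member over the widened body, against 8.54% of all protein-coding genes. For regions with ESC and D-EPSC peaks it was 89 genes (32.7%) against 21.5%. Only 3 list genes had a member at the start site, against 18 for the other class. Lists hold 12 to 21 genes each, so 1 gene moves a share by several percentage points. When the body was widened by 50 kb, 11 of the 17 lists changed their count by over 1.5 times. Over all protein-coding genes the share itself rose from 8.54% to 18.8%, and over the 272 genes from 11.4% to 22.4%. Such a rise is therefore not particular to these lists.

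Naive pluripotency factors held regions with ESC and D-EPSC peaks at 9 of 18 genes (50.0%, against 21.5% of all genes). They held members at 5 of 18 (27.8%, against 8.54% of all genes). With bodies widened by 50 kb, members lay at 6 of 18. The shares were then higher for Nodal, Lefty and BMP genes (8 of 17) and core pluripotency genes (7 of 19). Tfcp2l1, a transcription factor that sustains self-renewal downstream of LIF and STAT3, had 2, one in an intron at chr1:120530426-120531227 with 802 bp in ESCs and 320 bp in L-EPSCs, and one of 5394 bp in ESCs and 215 bp in L-EPSCs past its end. The second had no D-EPSC H3K27ac peak within 34422 bp, and H3K4me1 covered 3624 bp of it in ESCs, 3703 bp in L-EPSCs and 1379 bp in D-EPSCs. Tbx3, a T-box repressor, had a member of 7021 bp over its 3′ part and beyond, with 6798 bp in ESCs and 2279 bp in L-EPSCs. The nearest D-EPSC H3K27ac peak lay 765 bp from it, so it is no member where none may lie within 1 kb. Over the whole Tbx3 locus H3K27ac covered 28.9 kb in ESCs, 13.9 kb in L-EPSCs and 3.59 kb in D-EPSCs, while H3K4me1 was wider in D-EPSCs (28.9 kb) than in ESCs (21.1 kb).

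The other naive genes had smaller members. Klf5, a zinc finger factor of the naive network, had 1 in an intron, of 1041 bp in ESCs and 658 bp in L-EPSCs. Pecam1, a surface adhesion molecule, had 1 of 2815 bp in ESCs and 458 bp in L-EPSCs, and Jam2, a junctional adhesion molecule, had 1 beyond its end in the neighbouring gene. Unlike at Tbx3, locus H3K27ac was close in D-EPSCs and L-EPSCs at Tfcp2l1 (14.8 and 16.7 kb) and Jam2 (16.6 and 17.0 kb). At Klf5 it was wider in D-EPSCs (2.83 kb) than in L-EPSCs (1.11 kb). At Pecam1 it was wider in L-EPSCs (19.7 kb) than in D-EPSCs (12.2 kb). Of 19 core and general pluripotency genes 1 had a member: Sox2, with 1578 bp in ESCs and 685 bp in L-EPSCs, 6349 bp before its start site. H3K4me1 covered 594 bp of that region in ESCs and all 1578 bp in both EPSCs.

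Signalling lists varied. ERK targets and feedback genes, which fall when MEK is inhibited, held members at 1 of 20 genes (5.00%). This was below the 8.54% of all genes, but with bodies widened by 50 kb it was 5 of 20, above the 18.8% of all genes. The 1 gene was Spry4, a feedback inhibitor of receptor tyrosine kinase signalling, with regions of 6796 and 456 bp over its 3′ part. At Spry4 the L-EPSC peaks were narrow, with 446 and 307 bp, and H3K27ac over the locus was wider in D-EPSCs (5.84 kb) than in L-EPSCs (1.71 kb). LIF receptor and STAT3 genes held members at 1 of 15 (Tfcp2l1 again), and formative and primed factors at none of 17. With bodies widened by 50 kb, LIF receptor genes (5 of 15) and core pluripotency genes (7 of 19) also rose above the share of all genes.

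Genes of Nodal, Lefty and BMP signalling held regions with ESC and D-EPSC peaks at 7 of 17 and members at 4 of 17. Smad7, an inhibitory SMAD, had the widest, of 12771 bp (12149 bp in ESCs and 2658 bp in L-EPSCs) and 4357 bp. All 12771 bp were covered by H3K4me1 in each state. Smad3, the Nodal and activin effector, and Id2, a BMP target, had members of 954 and 573 bp. Wnt genes held members at 2 of 20, with 3 in introns of Tcf7l1 and 1 of 2682 bp before Tcf7l2, both transcription factors of the TCF family.

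Lineage lists varied from none to 18.75% of their genes. Eomes, a T-box factor of trophoblast and mesendoderm, was the only one of 15 trophoblast genes, with 2 downstream regions of 491 and 274 bp in L-EPSCs and no D-EPSC H3K27ac over its locus. Of 16 primitive endoderm genes, 2 had regions with ESC and D-EPSC peaks. Members lay at 3 of the 16, Col4a1, Cubn and Srgn (18.75%, against 8.54% of all genes). The Cubn region lies at the neighbouring gene Rsu1, and the Col4a1 region of 387 bp had no H3K4me1 in any state. Two-cell stage genes (12) and germline genes (14) had none. Of 20 fibroblast genes, Loxl1, a lysyl oxidase, had 1, of 245 bp in ESCs and 959 bp in L-EPSCs, and only the L-EPSC peak reached its start-site window.

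Of the metabolic and chromatin lists, glycolysis held regions with ESC and D-EPSC peaks at 10 of 21 genes and members at 4 of 21. Ldha, lactate dehydrogenase A, had a member at its start site of 6607 bp in ESCs and 1090 bp in L-EPSCs, but the L-EPSC peak itself did not reach within 1 kb of the start. Hk2, a hexokinase, had a region of 3600 bp in ESCs and 1848 bp in L-EPSCs, and over its locus H3K27ac covered 38.0, 5.67 and 16.1 kb in ESCs, D-EPSCs and L-EPSCs. Hk1 and the glucose transporter gene Slc2a1 had 1 intronic member each. For the TCA cycle and respiratory genes it was Idh2 and Vdac1, 2 of 17.

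Polycomb subunits held regions with ESC and D-EPSC peaks at 7 of 16 genes and members at 4 of 16. Ezh1, a histone H3 lysine 27 methyltransferase, had one upstream of its start site, with 5191 bp in ESCs and 493 bp in L-EPSCs, and no D-EPSC H3K27ac over its locus. Only the ESC peak reached the start-site window of Ezh1. Aebp2, an accessory subunit of PRC2, had 3, and Rnf2 and Pcgf6, subunits of PRC1, had 1 each. Retinoic acid genes held members at 2 of 16. Dhrs3, which reduces retinaldehyde, had 2 in introns with H3K4me1 in ESCs and L-EPSCs and not in D-EPSCs, the larger with 1111 bp of H3K27ac in ESCs and 1551 bp in L-EPSCs. Rarg, a retinoic acid receptor, had 1 upstream of its start. DNA methylation genes held 1 of 15, a region 9982 bp before the start of Dnmt1.

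**Figure D4:**
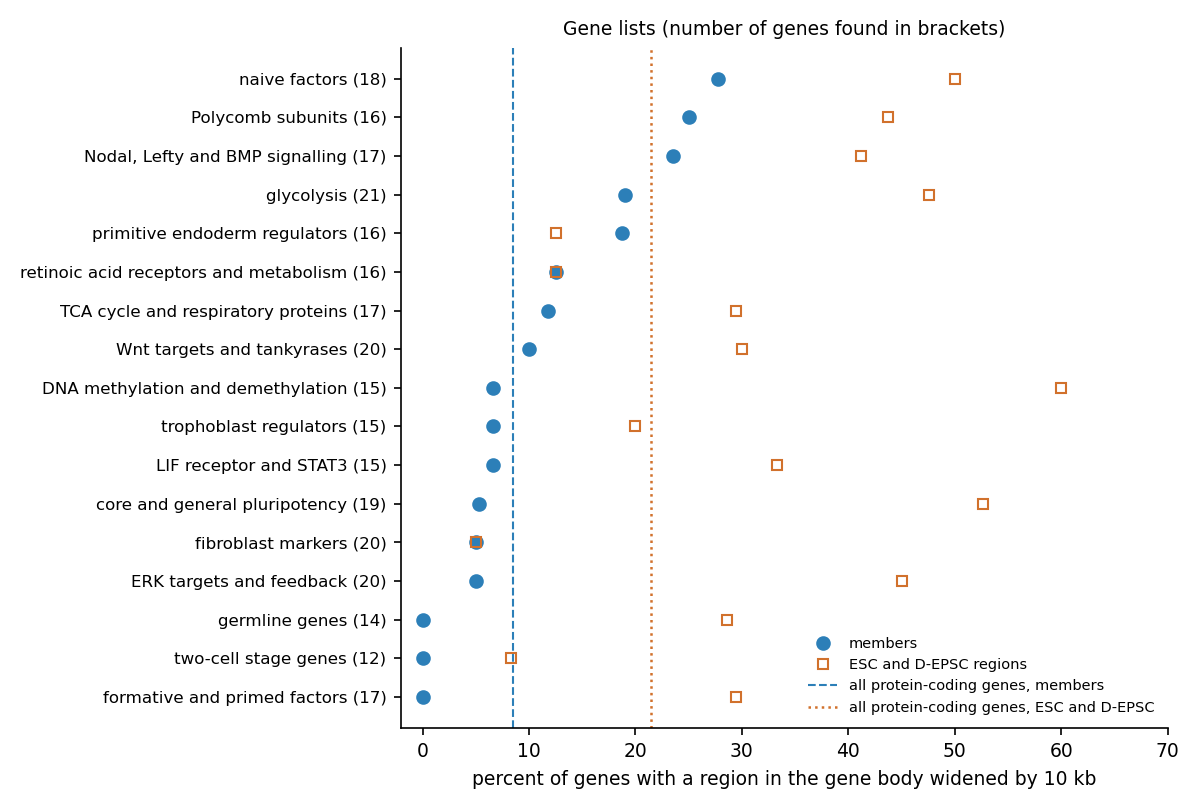
Percent of each list's genes with a member (filled circles) or a region with ESC and D-EPSC peaks (open squares) in the gene body widened by 10 kb, with the number of genes in brackets. The dashed line (8.54%) and dotted line (21.5%) give the shares over all protein-coding genes; naive factors stand highest for members, at 27.8%, and 3 lists stand at 0.

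In base composition members were close to other regions. The median GC content of the 300 bp windows was 50.0% for members, 48.3% for all union regions, 47.7% for regions with ESC and D-EPSC peaks and 50.7% for regions acetylated in all 3 states. The median CpG observed over expected ratio was 0.232 for members and 0.223 for all union regions.

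The ESRRB half-site AAGGTCA was found in 8.81% of member windows, 7.40% of the windows of all union regions and 5.96% of those with ESC and D-EPSC peaks. Other classes stood nearer the members, with 7.90% in ESC-only regions and 7.21% in regions acetylated in all 3 states. The member share was above that of the ESC and D-EPSC class on 19 of 20 chromosomes and above that of all union regions on 15. By chromosome it ran from 4.07% to 18.8%, so the spread between chromosomes was wider than the differences between classes. The AP-1 motif TGANTCA was found in 10.7% of member windows, 13.6% of the ESC and D-EPSC class and 10.5% of all union regions, and the member share was the lower on 17 of 20 chromosomes against the ESC and D-EPSC class.

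Other motifs lay above or below their shares over all union regions. In ratio the ETS, TCF/LEF and OCT4 motifs and the direct repeat bound by retinoic acid receptors differed more than the ESRRB half-site. That repeat was found in only 6 of 2860 member windows. In percentage points TEAD differed more than the half-site. With windows of 500 bp, the sign of the difference between members and all union regions turned for 4 of the 14 motifs searched, which were AP-1, ACAATGG, KLF and CCACTAG. TEAD (GGAATG) stood at 17.1% against 15.4%, the TCF/LEF motif CTTTGAT at 3.15% against 4.20%, the OCT4 octamer ATGCAAAT at 1.12% against 1.48%, and the ETS motif CCGGAAGT at 0.490% against 0.964%. The SOX core ACAAAG was in 26.0% of member windows against 25.2%, ACAATGG in 4.02% against 4.13%, the KLF motif GGGTGTG in 8.01% against 8.11%, the STAT motif TTCCNGGAA in 1.33% against 1.18%, and the TFAP2 motif GCCNNNGGC in 10.9% against 10.6%. CACGTG was in 4.90% against 5.22%, CCACTAG in 2.55% against 2.52%, and the direct repeat bound by retinoic acid receptors in 0.210% against 0.166%. That repeat contains half-sites that can overlap the ESRRB match. The genome was not masked for repeats, so matches in repeats are counted. A match describes the letters of a window and not a bound site.

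**Figure D5:**
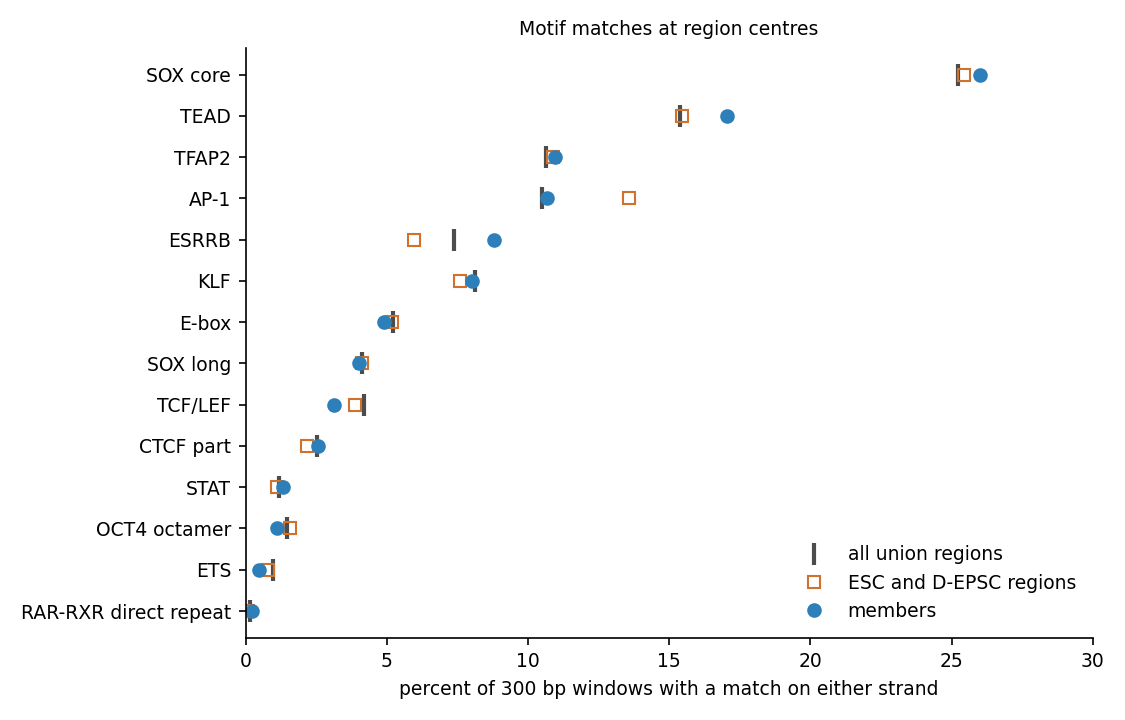
Percent of 300 bp windows with a match to each motif on either strand, for members (circles), regions with ESC and D-EPSC peaks (open squares) and all union regions (ticks). The ESRRB half-site is at 8.81%, 5.96% and 7.40%, and the AP-1 motif at 10.7%, 13.6% and 10.5%.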

How the data were processed

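Per the study's methods and the labels, the authors aligned paired-end reads to mm9 with bowtie2 (version 2.3.5), used SAMtools (version 1.10) and called broad peaks against input with MACS2. Thresholds and the pooling of replicates are not stated. Each deposited list gives chromosome, start, end and name, with no count, signal or score, so the unit is a position and read depth is unknown.

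Peaks were checked against NCBIM37 (mm9), and 0 peaks passed a chromosome end. Overlapping or touching peaks of the 3 H3K27ac lists were joined, and a class was set by which states had a peak (overlap of at least 1 bp). Genes were the 22350 protein-coding genes of GENCODE M1 on 20 chromosomes. Start sites were widened by 1000 bp and gene bodies by 10000 bp. List genes were matched by symbol or RefSeq synonym. Motifs were searched on both strands in windows of 300 bp. Scripts ran in Python 3.11.15 with numpy 2.4.6 and were tested on simulated lists.

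The members and gene lists were chosen with earlier results of these data known. Named were the 10 members with the largest smaller value of ESC and L-EPSC bases among those without a D-EPSC H3K27ac peak within 10 kb, the 10 genes with most members, and list genes with members, of which 1 is not reported here. Each state and mark had 1 list, so shares are descriptions, with their range over chromosomes. No paired analysis was possible because replicates were not listed apart. Alternatives are given in the closing section.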

Additional observations from a re-analysis of the deposited data

How the results depend on the processing

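The members were set by peak positions without scores, so neither depth nor call strength can be weighed, and a missing D-EPSC peak means only that none was called. A value counted as moved where it left the 95% Wilson interval of its main share (for a median, the order-statistic interval) or, for a count, passed 1.5 times. Of 78 comparisons, 31 did not move. H3K4me1 was least often present in D-EPSCs and most often in L-EPSCs under every alternative but equal covered bases, where all 3 shares were equal.

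Joining gaps of 1 kb gave a log2 ratio of ESC to L-EPSC bases of 1.17 and 48.9% of members with a D-EPSC H3K27ac peak within 10 kb, and a gap of 1 kb to D-EPSC peaks gave 55.9%. Requiring 50% overlap of both peaks left 875 members, with H3K4me1 at 83.3%, 78.7% and 89.4% (ESCs, D-EPSCs, L-EPSCs, in that order from here on), 54.9% near a D-EPSC peak and a ratio of 0.28. With peaks of at least 500 bp, H3K4me1 stood at 92.9%, 89.9% and 96.2%, start sites at 9.51%, 49.8% were near a D-EPSC peak, the ratio was 0.85 and X held 0.240%. The widest 50% of each list gave 1697 members, 94.99% with L-EPSC H3K4me1, 13.7% at start sites and 41.6% near a D-EPSC peak. The ratio was 0.82, and 0 of the 1697 lay on X. With lists of equal length, H3K4me1 stood at 97.9%, 94.995% and 98.4%, start sites at 8.82%, 55.1% were near a D-EPSC peak, the ratio was 1.84 and X held 0.0477%. In these 3 alternatives, 748 of 2082, 1023 of 1697 and 499 of 2098 members held a D-EPSC peak that had been dropped.

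H3K4me1 over at least 50% of the region gave 80.5%, 68.5% and 84.8%, and a peak within 1 kb 93.4%, 89.3% and 95.5%. Start sites widened by 500 bp took 5.98% of members and by 2500 bp 11.05%. Chosen after seeing the data, members without a D-EPSC peak within 10 kb numbered 1149, with a ratio of 0.95. Also chosen after seeing the data, H3K27ac lists of equal covered bases left 536 members, of which 404 held a dropped D-EPSC peak, with H3K4me1 at 100%, 100% and 100%, start sites at 14.0%, 42.2% near a D-EPSC peak, a ratio of 2.45 and 0.187% on X. The cause of these moves was not tested, and the dropped D-EPSC peaks were only counted. With windows of 500 bp no motif difference moved by more than its interval, though 4 of 14 small differences from all union regions changed sign. With gene bodies widened by 50 kb, ERK, core pluripotency and LIF receptor genes went from below to above the share of all genes. Retinoic acid and TCA cycle genes went from above to below it. No paired analysis was possible because each mark and state had 1 list.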
